A study of Mus musculus with 28 samples.

Results

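The genes described here are 8 mouse genes tied to the recruitment and the identity of inflammatory monocytes: the chemokines Ccl2, Ccl7, Ccl8 and Ccl12, the receptor Ccr2, and the monocyte genes Ly6c2, Chil3 and Plac8. They were taken by gene symbol from the deposited count matrices, in which all 8 were found among 55341 gene rows. All 8 passed the filter on low counts in each matrix, though Chil3, with counts as low as 3 in a PBS tumor, only through the groups in which it was high. RNAseq was performed on 28 subcutaneous AB1-HA tumors, each from a separate female BALB/c mouse (BALB/c.AusBP in the labels) of 8 to 10 weeks. AB1-HA is a mouse mesothelioma line that expresses the influenza hemagglutinin, and every tumor grew from this single line. Treatment started 10 to 11 days after inoculation, at a tumor size of 20 to 25 mm2, and tumors were taken 7 days later. Tumors received PBS (n = 4), immune checkpoint blockade (ICB, n = 5), 5-FU at 75 mg/kg (n = 5), cisplatin at 6 mg/kg (n = 4), 5-FU+ICB (n = 5) or cisplatin+ICB (n = 5). ICB was 1 dose of 100 µg of anti-CTLA-4 and 3 doses of 100 µg of anti-PD-L1. The comparisons ask which of these genes differed after each drug, alone and with ICB, and whether they moved with the leukocyte content of the tumor.

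Classical monocytes leave the bone marrow through CCR2, the receptor for CCL2, CCL7 and CCL12. These ligands are made by tumor cells, stromal cells and macrophages after inflammatory signals. Mouse CCL8 is known mainly as a ligand of CCR8 and is made by tissue macrophages. Ly6C, encoded in part by Ly6c2, marks mouse classical monocytes but is also carried by activated T cells, plasmacytoid dendritic cells and endothelium. Chil3 encodes Ym1, a chitinase-like protein of monocytes, neutrophils and IL-4-exposed macrophages. Plac8 is expressed in monocytes, other leukocytes and epithelial cells. Ptprc encodes CD45, the surface protein common to leukocytes, and was used as the leukocyte reference. In bulk tumor RNA, fewer cells of a type and less RNA per cell cannot be told apart.

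The 4 chemokine genes lie on the plus strand of chromosome 11 (GRCm38, GENCODE M21), within 81229 bases that also hold Ccl11 between Ccl7 and Ccl12: Ccl2 at chr11:82035571-82037453, Ccl7 at chr11:82045712-82047525, Ccl12 at chr11:82101845-82103400 and Ccl8 at chr11:82115185-82116799. Ccr2 is at chr9:124101950-124113557 on the plus strand. On the minus strand are Ly6c2 at chr15:75108158-75111970, Chil3 at chr3:106147554-106167564 and Plac8 at chr5:100553725-100572245. Promoter sequences (RefSeq, GRCm38.p6) were matched by symbol for 6 of the 8 members. Those of Ccl8 and Ccl12, neighbors in the cluster with unlike levels, and of Chil3, the member with the widest range, are given 5′ to 3′ on the strand of the gene. The capitals in Chil3 mark a match to the STAT-type GAS motif.
Ccl8, chr11:82114935-82115234, plus strand: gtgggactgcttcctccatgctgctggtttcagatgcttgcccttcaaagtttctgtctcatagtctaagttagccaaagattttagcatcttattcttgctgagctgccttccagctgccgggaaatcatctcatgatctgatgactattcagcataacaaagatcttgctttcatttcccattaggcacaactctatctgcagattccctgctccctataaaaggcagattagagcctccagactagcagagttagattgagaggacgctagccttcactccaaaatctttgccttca
Ccl12, chr11:82101595-82101894, plus strand: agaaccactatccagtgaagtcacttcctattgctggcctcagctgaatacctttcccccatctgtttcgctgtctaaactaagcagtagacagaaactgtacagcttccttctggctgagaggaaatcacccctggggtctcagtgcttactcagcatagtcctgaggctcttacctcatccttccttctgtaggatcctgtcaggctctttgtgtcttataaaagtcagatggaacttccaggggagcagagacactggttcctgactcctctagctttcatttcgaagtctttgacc
Chil3, chr3:106167515-106167814, minus strand: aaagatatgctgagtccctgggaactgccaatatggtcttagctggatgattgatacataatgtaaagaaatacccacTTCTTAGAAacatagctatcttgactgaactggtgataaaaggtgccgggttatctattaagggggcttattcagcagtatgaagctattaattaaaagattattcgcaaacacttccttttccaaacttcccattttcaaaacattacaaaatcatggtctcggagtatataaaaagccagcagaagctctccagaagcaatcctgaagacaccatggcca
Both strands were searched for GAS (TTCNNNGAA), ISRE (GAAA repeated after any 2 bases), AP-1 (TGANTCA) and the NF-kB motif. The Chil3 match, from -172 to -164 relative to the gene start, was the only match in the promoters of the 6 members. GAS was found in 8.3% of 32851 mouse promoters of the same length, ISRE in 3.44%, AP-1 in 7.81% and NF-kB in 8.46%. These are letter matches and not mapped sites.

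The count totals ranged from 23541733 to 33950805 per tumor with a median of 28797552, so that 3 counts, taken as the floor, correspond to 0.0821 to 0.159 CPM, that is, counts scaled to a common library total after TMM normalization. Several tumors stood apart from the rest of their group. Replicate 1 of cisplatin+ICB had the lowest Ptprc of its group, at 118 CPM, and the highest sum of mesothelial tumor markers of all 28 tumors, at 664 CPM. Replicate 2 of 5-FU+ICB had 105 CPM of Ptprc, against 342 to 722 CPM in the other tumors of its group. Replicate 5 of 5-FU+ICB had the highest sums of T cell markers, 1178 CPM, B cell markers, 589 CPM, and skeletal muscle markers, 3532 CPM. All were kept, and calls of members that turn on these tumors are given with and without them. Markers of the mesothelial tumor were detected in every group, and their sum ran from 273 to 361 CPM in PBS and from 216 to 309 CPM in cisplatin tumors, against 54.5 to 218 CPM in ICB, 46.8 to 178 CPM in 5-FU and 37.8 to 169 CPM in 5-FU+ICB tumors. In cisplatin+ICB it ran from 132 to 664 CPM. The part of this fall in tumor markers in the values of the members was not tested.

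Levels differed widely between members when set per transcript length. On the scale of CPM per kilobase, the level over the 28 tumors ran from 140 to 3457 (median 782) for Ccl8 and from 53.0 to 409 (median 188) for Ccl2. Plac8 ranged from 58.7 to 368 (median 96.7), Ccl7 from 20.6 to 245 (median 83.3) and Ccl12 from 28.4 to 117 (median 76.7). Ccr2 (8.55 to 70.5, median 31.4) and Ly6c2 (5.23 to 180, median 19.2) were lower, and Chil3 was the lowest and the most variable, from 0.0704 to 48.0 with a median of 1.06. Ptprc itself ran from 14.8 to 142 with a median of 39.4. All levels below are in CPM without length.

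**Figure D1:**
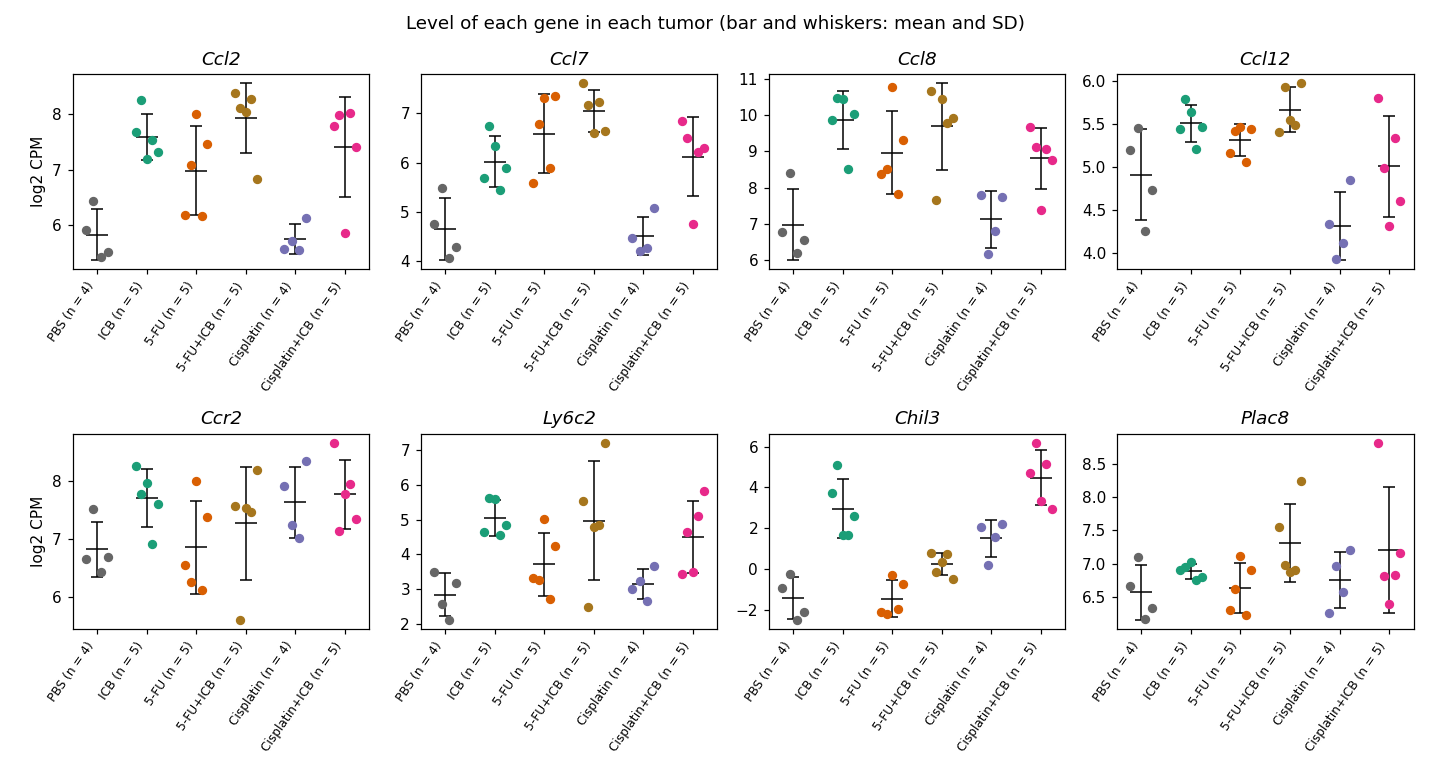
Level of each of the 8 genes in each of the 28 tumors by treatment group (y axis, log2 CPM), with the mean and SD of each group as bar and whiskers. Ccl2 and Ccl7 sit low in PBS and cisplatin tumors, Ccr2 and Plac8 overlap between all groups, and Chil3 spans the widest range, from 0.108 to 73.8 CPM.

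Ccl2, the principal CCR2 ligand, was 60.4, 86.5, 43.1 and 45.9 CPM in the PBS tumors and 205, 304, 146, 184 and 159 CPM in the ICB tumors. Every ICB tumor was above every PBS tumor. With 5-FU it was 72.9, 136, 254, 71.5 and 177 CPM and with 5-FU+ICB 332, 277, 263, 310.3 and 114 CPM. The 5-FU tumors spread widely and overlapped with PBS, whereas all 5-FU+ICB tumors were above it. With cisplatin Ccl2 was 47.7, 52.7, 46.7 and 70.3 CPM, within the PBS range, and with cisplatin+ICB it was 219.9, 252, 58.0, 260.3 and 170.3 CPM. Only replicate 3 of cisplatin+ICB fell into the PBS range. The group means were 59.0 ± 19.8 (SD) for PBS, 199.7 ± 62.6 for ICB, 142 ± 76.8 for 5-FU, 259 ± 85.7 for 5-FU+ICB, 54.4 ± 10.9 for cisplatin and 192 ± 82.8 CPM for cisplatin+ICB.

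Ccl7, which binds CCR1, CCR2 and CCR3, was 26.9, 44.9, 16.5 and 19.5 CPM in PBS tumors and 48.2, 109.6, 158, 59.6 and 163 CPM after 5-FU. All 5-FU tumors were above all PBS tumors. It was 51.7, 107, 80.9, 43.6 and 59.1 CPM with ICB, with replicate 4 just inside the PBS range, and 196, 144, 96.6, 151 and 99.7 CPM with 5-FU+ICB, all above PBS. Cisplatin tumors had 22.2, 18.4, 19.2 and 33.5 CPM, and cisplatin+ICB tumors 115, 89.9, 26.9, 73.9 and 78.0 CPM. As for Ccl2, cisplatin tumors lay within the PBS range and replicate 3 of cisplatin+ICB joined them. Means were 26.9 ± 12.7 (PBS), 68.5 ± 25.6 (ICB), 108 ± 53.6 (5-FU), 138 ± 41.3 (5-FU+ICB), 23.3 ± 6.99 (cisplatin) and 76.8 ± 32.2 CPM (cisplatin+ICB).

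Ccl8, the most abundant member per length, was 109, 339.8, 72.7 and 94.2 CPM in PBS tumors and 940.4, 1414, 1399, 364 and 1042 CPM in ICB tumors. The highest PBS tumor, replicate 2, came close to the lowest ICB tumor, replicate 4, and the groups did not overlap. The other groups had 332, 364, 1767, 228 and 634 CPM (5-FU), 1633, 203, 1385, 878 and 969 CPM (5-FU+ICB), 221, 71.6, 112 and 213 CPM (cisplatin) and 818, 554, 169, 539.9 and 435 CPM (cisplatin+ICB). In 5-FU, 5-FU+ICB and cisplatin+ICB at least 1 tumor lay within the PBS range. Means were 154 ± 125 (PBS), 1032 ± 429 (ICB), 665 ± 634 (5-FU), 1013 ± 548 (5-FU+ICB), 154 ± 74.2 (cisplatin) and 503 ± 234 CPM (cisplatin+ICB).

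Ccl12, a mouse CCR2 ligand, moved least among the chemokines, at 36.8, 43.6, 19.1 and 26.5 CPM in PBS and 43.3, 55.1, 49.6, 36.9 and 44.1 CPM in ICB tumors. It was 35.6, 42.8, 44.1, 33.3 and 43.4 CPM after 5-FU and 42.2, 60.7, 46.6, 44.8 and 62.8 CPM after 5-FU+ICB. These groups overlapped with PBS. Cisplatin tumors had 20.2, 15.2, 17.4 and 28.7 CPM and cisplatin+ICB tumors 55.7, 31.7, 19.9, 40.2 and 24.2 CPM. Means were 31.5 ± 10.8 (PBS), 45.8 ± 6.85 (ICB), 39.8 ± 5.01 (5-FU), 51.4 ± 9.59 (5-FU+ICB), 20.4 ± 5.93 (cisplatin) and 34.3 ± 14.2 CPM (cisplatin+ICB). The cisplatin mean was the lowest of the 6.

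Ccr2 was 102, 183, 86.7 and 103 CPM in PBS tumors and 304, 220.2, 249, 121 and 194 CPM in ICB tumors. After 5-FU it was 93.8, 76.6, 255, 70.1 and 166 CPM and after 5-FU+ICB 189, 49.0, 185, 177 and 290.1 CPM. In each of these groups tumors lay within the PBS range, and replicate 2 of 5-FU+ICB held the lowest value of all 28. Cisplatin tumors had 241, 151, 130.4 and 325 CPM and cisplatin+ICB tumors 404, 141, 219, 246 and 162 CPM. Means were 119 ± 43.5 (PBS), 218 ± 67.9 (ICB), 132 ± 78.5 (5-FU), 178 ± 85.7 (5-FU+ICB), 212 ± 89.6 (cisplatin) and 234 ± 104 CPM (cisplatin+ICB). The receptor thus had a mean in cisplatin tumors close to that in ICB tumors, unlike its ligands.

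Ly6c2 was 11.1, 5.96, 4.3 and 9.1 CPM in PBS tumors and 25.0, 49.2, 48.2, 23.6 and 28.7 CPM in ICB tumors, without overlap. It was 9.91, 9.63, 32.3, 6.56 and 18.8 CPM after 5-FU and 46.0, 5.55, 27.7, 28.8 and 148 CPM after 5-FU+ICB. The 2 extremes of 5-FU+ICB were replicates 2 and 5, the tumors with the lowest and the highest Ptprc of that group. Cisplatin tumors had 7.96, 9.4, 6.3 and 12.7 CPM and cisplatin+ICB tumors 10.8, 24.8, 11.2, 34.0 and 56.1 CPM. Means were 7.63 ± 3.08 (PBS), 35.0 ± 12.7 (ICB), 15.5 ± 10.5 (5-FU), 51.3 ± 56.1 (5-FU+ICB), 9.09 ± 2.72 (cisplatin) and 27.4 ± 18.8 CPM (cisplatin+ICB). Of the 31-base words of its transcripts, 21.4% also occur in Ly6c1, its neighboring paralog, so the split of reads between these genes is uncertain. Ly6c1 moved the same way, from 22.3 ± 5.18 CPM in PBS to 89.5 ± 32.7 CPM in ICB tumors.

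Chil3 was nearly absent from PBS tumors, at 0.446, 0.779, 0.108 and 0.166 CPM (3 to 23 counts), and from 5-FU tumors, at 0.164, 0.144, 0.757, 0.183 and 0.537 CPM (4 to 17 counts). These groups overlapped. ICB tumors had 13.2, 34.0, 3.16, 3.14 and 6.0 CPM (80 to 1191 counts) and cisplatin+ICB tumors 26.5, 73.8, 9.89, 35.8 and 7.65 CPM (247 to 2317 counts). All tumors of both groups were above all PBS and 5-FU tumors. Cisplatin tumors had 4.03, 1.07, 2.92 and 4.5 CPM (28 to 152 counts), above every PBS tumor, and 5-FU+ICB tumors 1.67, 0.837, 1.22, 1.58 and 0.65 CPM (13 to 51 counts), below every ICB tumor. Means were 0.375 ± 0.307 (PBS), 11.9 ± 13 (ICB), 0.357 ± 0.276 (5-FU), 1.19 ± 0.448 (5-FU+ICB), 3.13 ± 1.53 (cisplatin) and 30.7 ± 26.8 CPM (cisplatin+ICB). Chil3 shares 28.9% of its 31-base words with its paralog Chil4 and 41.5% with any other gene, and Chil4 did not exceed 0.0856 CPM in any tumor.

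Plac8 was 102, 137, 71.9 and 80.9 CPM in PBS, 119, 124, 131, 108 and 111 CPM in ICB and 79.4, 98.6, 138, 75.3 and 119 CPM in 5-FU tumors. These ranges overlapped. It was 76.3, 124, 95.4 and 148 CPM with cisplatin, 187, 126, 117, 120.1 and 302 CPM with 5-FU+ICB and 450.2, 112, 84.4, 113 and 143 CPM with cisplatin+ICB. The highest value, in replicate 1 of cisplatin+ICB, was in the tumor with the highest mesothelial markers, and the part of those cells in it was not tested. Means were 98.0 ± 29.0 (PBS), 119 ± 9.22 (ICB), 102 ± 26.6 (5-FU), 171 ± 78.9 (5-FU+ICB), 111 ± 31.5 (cisplatin) and 181 ± 152 CPM (cisplatin+ICB).

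When the groups were ordered by mean log2 CPM, few neighbors in the order differed by more than the larger of their SDs. Chil3 was the exception, with cisplatin+ICB above ICB, ICB above cisplatin, cisplatin above 5-FU+ICB and 5-FU+ICB above PBS each by more than that SD, and only PBS and 5-FU not separated. For Ccl2 the gap lay between 5-FU and PBS (1.15 log2 units), for Ccl7 between ICB and PBS (1.38), for Ccl8 between cisplatin+ICB and cisplatin (1.68) and for Ccl12 between PBS and cisplatin (0.60). For Ccr2, Ly6c2 and Plac8 no neighbors differed by more than the larger SD.

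Differential expression was next tested against PBS with edgeR's quasi-likelihood test across all genes of a matrix, and a gene was called a DEG at a Benjamini-Hochberg adjusted p below 0.05 and an absolute log2 fold change above 0.5. The comparisons share the PBS tumors, so their values are set side by side and not treated as independent. After ICB, Ccl2, Ccl7, Ccl8, Ly6c2 and Chil3 rose, 5 of 8 members, where 37.8% of the 17916 genes tested were DEGs and 19% were higher. The median log2 fold change of the 8 members was 1.56, against -0.03 for all genes. Chil3 was at 4.99 log2 units (SE 0.87, adjusted p = 0.000617), a size set against 3 to 23 counts in PBS tumors. Since it passed the filter through its high groups, it was also tested with no filter, where it was at 5.10 (adjusted p = 0.000454), and it was not tested where at least 10 counts in every tumor were required. Of the other 7 members, 4 rose, among them Ccl8 (2.73, SE 0.71, adjusted p = 0.00607) and Ly6c2 (2.22, SE 0.69, adjusted p = 0.017). Ccl2 rose by 1.77 (SE 0.40, adjusted p = 0.0028) and Ccl7 by 1.35 (SE 0.41, adjusted p = 0.0146). Groups did not overlap for Ccl2, Ccl8, Ly6c2 and Chil3, which was so for 15.8% of all genes in the higher direction. Ccl12 (0.55, SE 0.22, adjusted p = 0.0561), Ccr2 (0.88, SE 0.46, adjusted p = 0.127) and Plac8 (0.28, SE 0.28, adjusted p = 0.432) did not pass. Ccl12 was called by DESeq2 (0.59, adjusted p = 0.0311), with the other filters and scaling tried, and without replicate 2 of PBS (0.77) or replicate 4 of ICB (0.62), and Ccr2 in a fit of these groups alone (0.92, adjusted p = 0.0355). The Ly6c2 call was lost without replicate 2 of PBS (2.13, adjusted p = 0.0501). Ptprc rose by 2.00 (SE 0.44, adjusted p = 0.00231).

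After 5-FU, 3 members rose, all chemokines, where 23% of genes were DEGs and 9.98% were higher. Ccl7 rose by 1.99 log2 units (SE 0.42, adjusted p = 0.006) with no overlap, as for 9.28% of all genes. Ccl2 rose by 1.27 (SE 0.40, adjusted p = 0.028) and Ccl8 by 2.09 (SE 0.69, adjusted p = 0.0344). The calls of Ccl2 and Ccl8 were each lost without replicate 1, 3 or 4 of PBS or replicate 3 or 5 of 5-FU. Without replicate 3 of 5-FU, the tumor with the most Ccl2 and Ccl8 in its group, Ccl2 was at 0.95 (adjusted p = 0.0811) and Ccl8 at 1.31 (adjusted p = 0.126). In a fit of all 6 groups together 1 member was a DEG, where 4.45% of genes were. Ly6c2 (1.02, SE 0.67, adjusted p = 0.253), Ptprc (1.09, SE 0.43, adjusted p = 0.0654), Ccl12 (0.33), Ccr2 (0.16), Plac8 (0.05) and Chil3 (-0.13) did not pass. The median of the members was 0.68 and that of all genes -0.01.

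After 5-FU+ICB, 6 members rose, where 40.7% of genes were DEGs and 21.9% were higher. Ly6c2 rose by 2.78 log2 units (SE 0.71, adjusted p = 0.00551), Ccl8 by 2.70 (SE 0.71, adjusted p = 0.00623), Ccl7 by 2.35 (SE 0.43, adjusted p = 0.000957) and Ccl2 by 2.14 (SE 0.41, adjusted p = 0.00122). These 4 calls were kept in all 9 fits that left out 1 tumor. Ccl12 (0.71, SE 0.22, adjusted p = 0.0168) and Plac8 (0.81, SE 0.29, adjusted p = 0.0303) also rose. The Ccl12 call was lost without replicate 4 of PBS (0.61, adjusted p = 0.0535). The Plac8 call was lost without replicate 1, 3 or 4 of PBS or replicate 1 or 5 of 5-FU+ICB, and was at 0.49 (adjusted p = 0.106) without the last of these. In a fit of these groups alone neither Ccl12 (0.76, adjusted p = 0.0551) nor Plac8 (0.87, adjusted p = 0.0811) was called, and Plac8 was not called in a fit of all 6 groups (0.80, adjusted p = 0.102). Only Ccl2 and Ccl7 did not overlap with PBS, as for 10.9% of all genes in this direction. Chil3 (1.65, SE 0.78, adjusted p = 0.0908) and Ccr2 (0.60, adjusted p = 0.286) did not pass. The member median was 1.89 against -0.04 over all genes.

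After cisplatin no member passed and no gene of the 17819 tested was a DEG (0%) by edgeR, although 317 genes (1.78%) had an unadjusted p under 0.05 and DESeq2 called 4. Chil3 had a log2 fold change of 3.05 (SE 0.93, adjusted p = 0.99997) and ranked number 22 of all genes by p, and its groups did not overlap, as for 1.53% of genes in this direction. Ccr2 was at 0.84 and Ccl12 at -0.62, and the other members lay between -0.20 and 0.26. After cisplatin+ICB, Ccl2, Ccl7, Ly6c2 and Chil3 rose, 4 of 8 members, where 6.1% of genes were DEGs and 4.7% were higher. Chil3 rose by 6.36 log2 units (SE 1.02, adjusted p = 0.011) without overlap, as for 3.43% of genes. This size too is set against 3 to 23 counts in PBS, and with no filter on low counts Chil3 was at 6.43 (adjusted p = 0.00768). Ly6c2 rose by 1.86 (SE 0.46, adjusted p = 0.0294), Ccl2 by 1.72 (SE 0.36, adjusted p = 0.017) and Ccl7 by 1.52 (SE 0.39, adjusted p = 0.0321). Ccl8 (1.72, SE 0.54, adjusted p = 0.0644), Ccr2 (1.00, SE 0.36, adjusted p = 0.099), Plac8 (0.89, adjusted p = 0.179) and Ccl12 (0.14) did not pass. Without replicate 1, 3 or 4 of PBS none of these 4 calls was kept, with the sizes still between 1.34 (Ccl7) and 6.44 (Chil3). Without replicate 1 of PBS the number of DEGs over all genes was 0 as well. Without replicate 2, 4 or 5 of cisplatin+ICB the calls of Ccl2 and Chil3 were kept and those of Ccl7 and Ly6c2 lost, the latter also without replicate 2 of PBS (1.75, adjusted p = 0.0648). In a fit of these 2 groups alone no member passed, and the number of DEGs over all genes was 0. Ccl8 passed without replicate 1 of cisplatin+ICB (1.51, where 35.3% of genes did), without its replicate 3 (1.95, 8.91%), without replicate 2 of PBS (2.46, 4.35%) and by DESeq2 (1.78, 6.06%), which also called Ccr2 (1.06). The DESeq2 share is over all genes with any count, a wider set than the filtered genes of edgeR, so it is not on the same base as the edgeR shares.

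**Figure D2:**
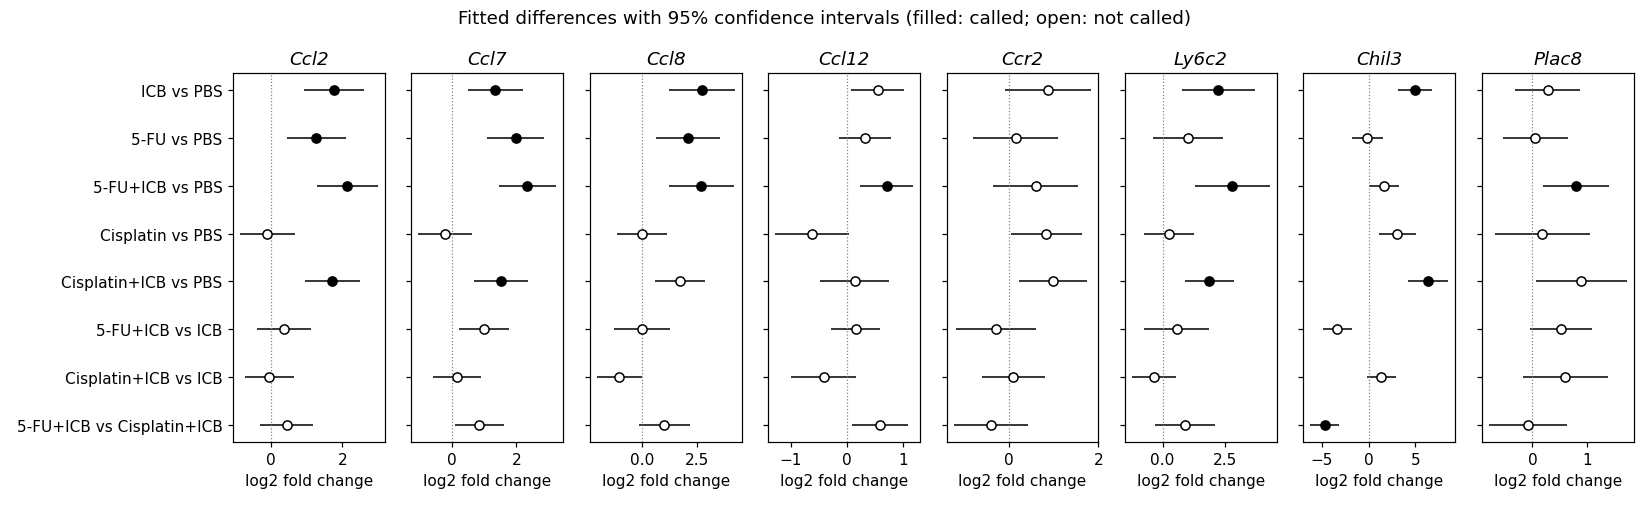
Log2 fold change (x axis) with its 95% confidence interval for the 8 genes after each of the 5 treatments against PBS. Also drawn are 5-FU+ICB and cisplatin+ICB, each against ICB, and 5-FU+ICB against cisplatin+ICB. Filled markers are DEGs. Against PBS, ICB had 5 members, 5-FU 3, 5-FU+ICB 6, cisplatin 0 and cisplatin+ICB 4. Chil3 lies farthest to the right after cisplatin+ICB against PBS, at 6.36, and is also filled in 5-FU+ICB against cisplatin+ICB.

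The treatments were then compared with each other. Adding ICB to 5-FU gave no called member, where 0.0112% of genes were DEGs, with log2 fold changes of 1.75 for Ly6c2 (SE 0.63, adjusted p = 0.197), 1.78 for Chil3 and 0.87 for Ccl2. Without replicate 2 of 5-FU+ICB, Ly6c2 rose by 2.04 and passed, where 10.9% of genes did. Adding ICB to cisplatin gave no called member and no DEG (0%) with edgeR, with 1.83 for Ccl2 (SE 0.36, adjusted p = 0.0693), 1.73 for Ccl7 (adjusted p = 0.0779) and 3.30 for Chil3 (SE 0.85, adjusted p = 0.0909). Every cisplatin+ICB tumor was above every cisplatin tumor for Chil3, as for 1.18% of genes. Without replicate 1 of cisplatin+ICB, Ccl2 (1.83), Ccl7 (1.59), Ly6c2 (1.85) and Chil3 (3.41) passed, the same 4 passed without its replicate 3, and DESeq2 called these and Ccl8. In these 3 analyses 11.9%, 3.04% and 2.17% of genes were called, the last over the wider set of all genes with any count. Against ICB alone, cisplatin+ICB had no called member and no DEG (0%), with Chil3 at 1.37 (adjusted p = 0.34) and Ccl8 at -1.04 (adjusted p = 0.313). Against ICB alone, 5-FU+ICB had 0.229% DEGs and no called member, but Chil3 was lower in every 5-FU+ICB tumor than in every ICB tumor (-3.34, SE 0.72, adjusted p = 0.0665), as for 1.66% of genes. DESeq2 called it lower, at -3.32, where it called 0.898% of all genes with any count, and so did edgeR without replicate 3 of ICB (-3.58, adjusted p = 0.0411).

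The 2 chemotherapies differed most directly in Ccl7 and Chil3. Between 5-FU and cisplatin tumors 0.362% of 18521 genes were DEGs, 0.0918% being higher with 5-FU, and Ccl7 was among these at 2.21 log2 units (SE 0.42, adjusted p = 0.02). Ccl2 (1.39, adjusted p = 0.107), Ccl8 (2.11, adjusted p = 0.12) and Ccl12 (0.97, adjusted p = 0.0921) did not pass, but like Ccl7 they were higher in every 5-FU tumor than in every cisplatin tumor, which was so for 5.29% of genes. Chil3 was lower in every 5-FU tumor (-3.16, SE 0.77, adjusted p = 0.0595), as for 7.22% of genes. The Ccl7 call was lost without replicate 3 or 5 of 5-FU or replicate 2 or 3 of cisplatin, with sizes from 2.01 to 2.12. DESeq2 called these 5 members, where it called 1.82% of all genes with any count. An edgeR fit of these groups alone called 3, where it called 5.62% of its filtered genes. Between 5-FU+ICB and cisplatin+ICB tumors 0.297% of genes were DEGs, 0.194% lower with 5-FU+ICB. Chil3 was the only member, at -4.68 log2 units (SE 0.75, adjusted p = 0.0152), number 2 of the genes tested by p, with no overlap as for 0.923% of genes. Since it passed the filter through its high groups, it was also tested with no filter on low counts, where it was at -4.65 (adjusted p = 0.0115). The call was lost without replicate 1 (-4.83, adjusted p = 0.0592) or 5 (-4.53, adjusted p = 0.0527) of 5-FU+ICB and in a fit of these groups alone (adjusted p = 0.177).

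Whether the effect of ICB differed with chemotherapy was tested as an interaction. No member passed with 5-FU, where 0.0893% of genes did, or with cisplatin, where none did (0%). Chil3 had the largest difference among members, -3.21 with 5-FU (SE 1.06, adjusted p = 0.0892), that is, a smaller rise on ICB in the presence of 5-FU. DESeq2 called it, where it called 4.2% of all genes with any count. With cisplatin it was -1.69 (adjusted p = 0.574).

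The members were next set relative to Ptprc, as log2 CPM minus log2 CPM of Ptprc in each tumor, since Ptprc itself ran from 92.0 ± 12.7 CPM in PBS and 114 ± 41 in cisplatin to 195 ± 99 in 5-FU, 242 ± 108 in cisplatin+ICB, 364 ± 82.4 in ICB and 402 ± 223 CPM in 5-FU+ICB tumors. Two-sided exact permutation tests of these differences, added after the data were seen, stand beside edgeR fits with the Ptprc count as library size. Of 88 permutation tests, 20 had an unadjusted p under 0.05. They were not run over all genes. In the edgeR fits the share of all genes with an unadjusted p under 0.05 ran from 0.662% for cisplatin to 78.4% for ICB, both against PBS. On simulated data these fits recovered few or none of the changed genes, so the lack of a call does not show that a gene followed Ptprc. On this scale all genes shift: the median gene moved by -2.00 log2 units after ICB, -0.84 after 5-FU, -1.58 after 5-FU+ICB and -1.04 after cisplatin+ICB. A value below 0 means that the gene changed less upward, or more downward, than Ptprc.

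Ly6c2 varied little relative to Ptprc. Its level relative to Ptprc was -3.66 ± 0.54 in PBS, -3.42 ± 0.30 in ICB, -3.74 ± 0.22 in 5-FU, -3.43 ± 0.72 in 5-FU+ICB, -3.61 ± 0.51 in cisplatin and -3.29 ± 0.37 in cisplatin+ICB tumors. No fit called it against PBS or between treatments, and its exact permutation p in these comparisons was 0.238 at the least (cisplatin+ICB against PBS, a difference of 0.38). This is in contrast to its rise in CPM.

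Ccr2, Plac8 and Ccl12 were lower relative to Ptprc after ICB than in PBS tumors. Ccr2 relative to Ptprc was 0.31 ± 0.33 in PBS, -0.77 ± 0.42 in ICB, -0.60 ± 0.20 in 5-FU, -1.14 ± 0.18 in 5-FU+ICB, 0.87 ± 0.24 in cisplatin and -0.01 ± 1.23 in cisplatin+ICB. ICB and 5-FU+ICB tumors all lay below PBS tumors, as they did for 71.2% and 37.1% of all genes on this scale. The fit gave -1.06 after ICB (SE 0.32, adjusted p = 0.00661, exact permutation p = 0.0159), where 76.6% of genes were called and 75.1% were lower. After 5-FU+ICB it gave -1.47 (SE 0.33, adjusted p = 0.00346, exact permutation p = 0.00794, the smallest this design allows), where 64.1% of genes were called and 61.7% were lower. Plac8 had -1.64 after ICB (SE 0.41, adjusted p = 0.00187, exact permutation p = 0.00794) and -0.97 after 5-FU+ICB (SE 0.40, adjusted p = 0.0413, exact permutation p = 0.0397), the second kept only in the fits without replicate 4 of PBS or replicate 2 of 5-FU+ICB, 2 of the 9 that left out 1 tumor, where it otherwise lay between -1.01 and -0.83. Ccl12 had -1.39 after ICB (SE 0.50, adjusted p = 0.0162, exact permutation p = 0.00794). These ICB values of Ccr2, Plac8 and Ccl12 are smaller in size than the shift of the median gene. After cisplatin+ICB the fit for Plac8 relative to Ptprc turned with 1 tumor: without replicate 1 it was -1.25 against PBS and -1.29 against cisplatin, while with it neither value passed. The mean difference of the per-tumor values was below 0 with that tumor kept, at -0.64 against PBS (exact permutation p = 0.452) and -0.57 against cisplatin (exact permutation p = 0.5).

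Chil3 was higher relative to Ptprc after ICB and cisplatin+ICB than in PBS tumors, where it had 3 to 23 counts. It went from -7.96 ± 0.88 relative to Ptprc in PBS to -5.52 ± 1.40 in ICB, -5.26 ± 0.59 in cisplatin and -3.31 ± 1.46 in cisplatin+ICB, against -8.93 ± 0.35 in 5-FU and -8.16 ± 1.13 in 5-FU+ICB. Chil3 passed the filter on low counts through its high groups. Fits relative to Ptprc were not run without that filter, while the permutation tests use none. The fit gave 3.02 after ICB (SE 0.74, adjusted p = 0.00174, exact permutation p = 0.0238), where 1.55% of genes were called higher. After cisplatin+ICB it gave 5.15 (SE 0.87, adjusted p = 0.0159, exact permutation p = 0.0159), where 36.8% of genes were called and 0.819% were higher. This call was lost without replicate 3 of PBS (4.89, adjusted p = 0.0715), where no gene was called. Between 5-FU+ICB and cisplatin+ICB it was -5.13 (SE 0.74, adjusted p = 0.0011, exact permutation p = 0.00794), kept in all 10 fits that left out 1 tumor, where 0.135% of genes were called. Between 5-FU and cisplatin it was -3.98 (SE 0.73, adjusted p = 0.0356, exact permutation p = 0.00794), where 0.0216% of genes were called, but this call was lost in each of the 9 fits that left out 1 tumor (-4.19 to -3.80). Against ICB tumors, Chil3 relative to Ptprc differed by -2.64 in 5-FU+ICB (exact permutation p = 0.0159) and by 2.21 in cisplatin+ICB tumors (exact permutation p = 0.0476), where the median gene shifted by 0.43 and 0.81, and neither was called by the fit.

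Neither Ccl2 nor Ccl8 was called relative to Ptprc against PBS. Ccl8 was called higher without replicate 2 of PBS, after ICB (1.38, adjusted p = 0.0114) and after 5-FU+ICB (1.33, adjusted p = 0.0212), and after ICB with 5 pan-leukocyte genes in place of Ptprc (1.00, adjusted p = 0.0423). The fits relative to Ptprc called few genes between treated groups, 0.0837% for 5-FU+ICB against ICB and 0% for 5-FU+ICB against 5-FU, for cisplatin+ICB against ICB and for cisplatin+ICB against cisplatin, and no member was among them. Leaving out 1 tumor changed this for members and for genes at large. Without replicate 2 of 5-FU+ICB, Ccl7 (-0.85), Ccl12 (-1.14) and Plac8 (-0.64) were called against 5-FU, where 75.3% of genes were. Without the same tumor Ccl12 was called against PBS (-1.63, 82.4% of genes), and Ccr2 (-1.56) and Plac8 (-1.58) against cisplatin+ICB (50.6% of genes). Without replicate 5 of 5-FU+ICB, Ccl7 was called higher against PBS (1.12, adjusted p = 0.0461), where 53.1% of genes were called. Without replicate 1 of cisplatin+ICB, Ccl12 was called against PBS (-1.57, 70.5% of genes), and Ccl12 (-0.72), Ccr2 (-1.16), Plac8 (-1.29) and Chil3 (2.13) against cisplatin (63.8% of genes). Without replicate 4 or 5 of cisplatin+ICB, Ccl7, Ccr2, Chil3 and Plac8 were called higher against ICB, where 32.5% and 37.9% of genes were called. So were Ccr2 (1.36) and Plac8 (1.94) without its replicate 2 (28.9% of genes), and Chil3 (1.94) and Plac8 (1.84) without replicate 4 of ICB (29.2%). Against cisplatin, Chil3 was also called without replicate 3 of cisplatin+ICB (2.53, 35.9% of genes) or replicate 4 of cisplatin (2.45, 24.6%). Relative to Ptprc, Ccl7 was higher in 5-FU than in PBS tumors by 0.99 (exact permutation p = 0.0317), and so were Ccl7 (1.38, exact permutation p = 0.0159) and Ccl8 (1.14, exact permutation p = 0.00794) in 5-FU against cisplatin tumors. Ccr2 stood lower there (-1.47, exact permutation p = 0.00794), where the median gene shifted by -0.64. In 5-FU+ICB against 5-FU tumors it was at -0.54 (exact permutation p = 0.0159), less than the shift of the median gene, -0.71. In 5-FU against PBS tumors Ccr2 (-0.91, exact permutation p = 0.00794) and Plac8 (-0.88, exact permutation p = 0.0159) lay at the shift of the median gene, -0.84. None of these was called in the fits with the Ptprc count as library size, which called 2.6% of genes after 5-FU. In cisplatin against PBS tumors that fit called no gene (0%), and Chil3 (2.70) and Ccl12 (-0.84) reached the smallest exact permutation p that 4 against 4 tumors allow, 0.0286.

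**Figure D3:**
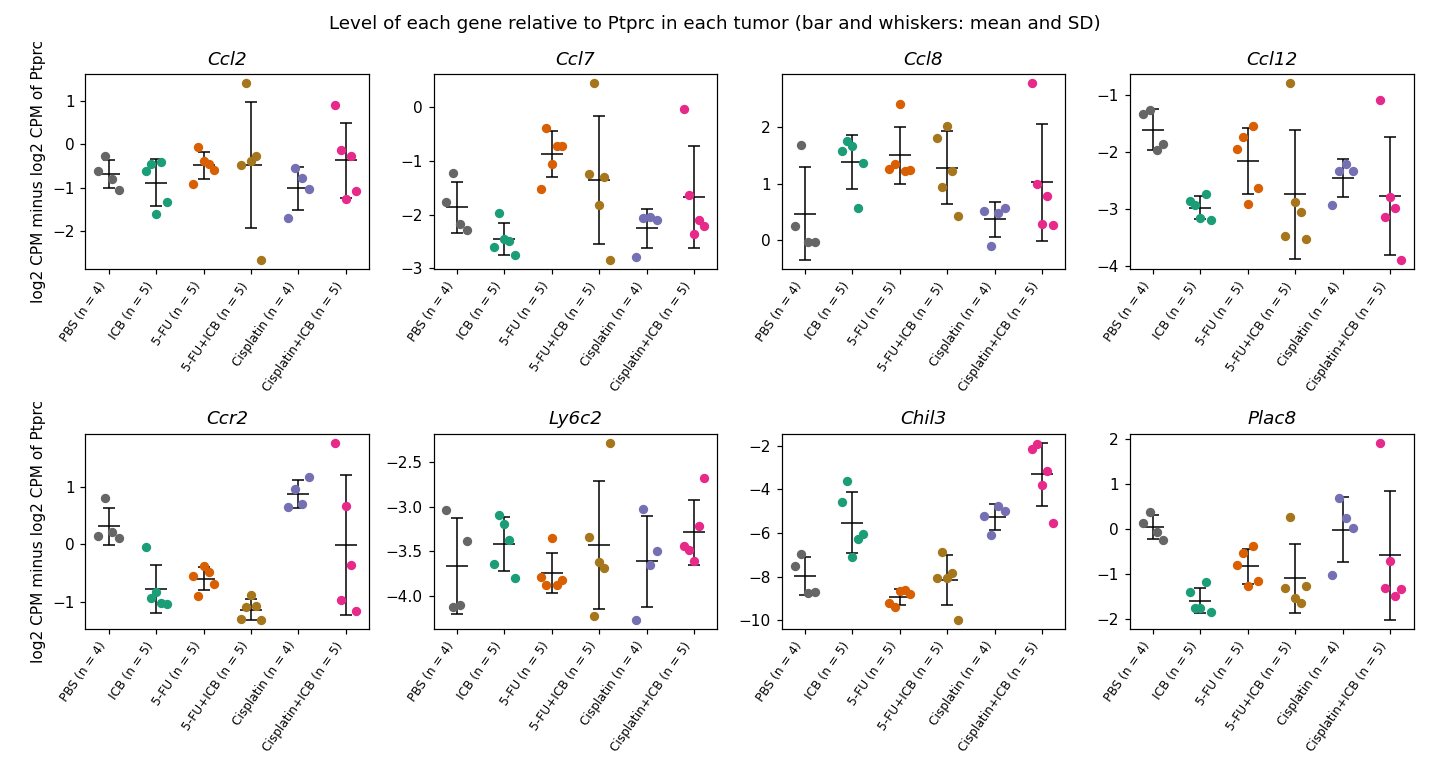
Log2 CPM of each gene minus log2 CPM of Ptprc (y axis) in each of the 28 tumors by group, with mean and SD. Ly6c2 means stay between -3.74 and -3.29 in all groups, Ccr2 is highest in cisplatin tumors (0.87 ± 0.24), and Chil3 is lowest in 5-FU tumors (-8.93 ± 0.35) and highest in cisplatin+ICB tumors (-3.31 ± 1.46).

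Across the 28 tumors the members fell in with different genes, given here as descriptions over pooled groups that share treatments, with r from log2 CPM and r within groups after removing group means. Ccl2 and Ccl7 moved together (r = 0.887, Spearman's rho = 0.841, within groups 0.843). Ly6c2 moved with Ptprc (r = 0.947, rho = 0.912, within groups 0.913, and 0.938 without the 2 tumors farthest from the median Ptprc). Ccl8 also moved with Ptprc (r = 0.872, within groups 0.717), whereas Chil3 (0.386) and Plac8 (0.381) did so weakly. Ly6c2 moved with Cd8a (0.893, within groups 0.830) and Cd3e (0.878), genes of T cells, and with Ly6c1 (0.940). Markers of other leukocytes moved with it too: Csf3r (0.802, within groups 0.690), Adgre1 (0.785, within groups 0.666) and C1qa (0.746, within groups 0.590). Ngp (0.372) and S100a9 (0.279) did so less. Chil3 moved with S100a9 (0.861, within groups 0.555) and S100a8 (0.857, within groups 0.512), calcium-binding proteins of neutrophils and monocytes, and less with the neutrophil genes Csf3r (0.482), Retnlg (0.440) and Ngp (0.264). Plac8 ran against the collagen gene Col1a1 (-0.571, within groups -0.781).

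**Figure D4:**
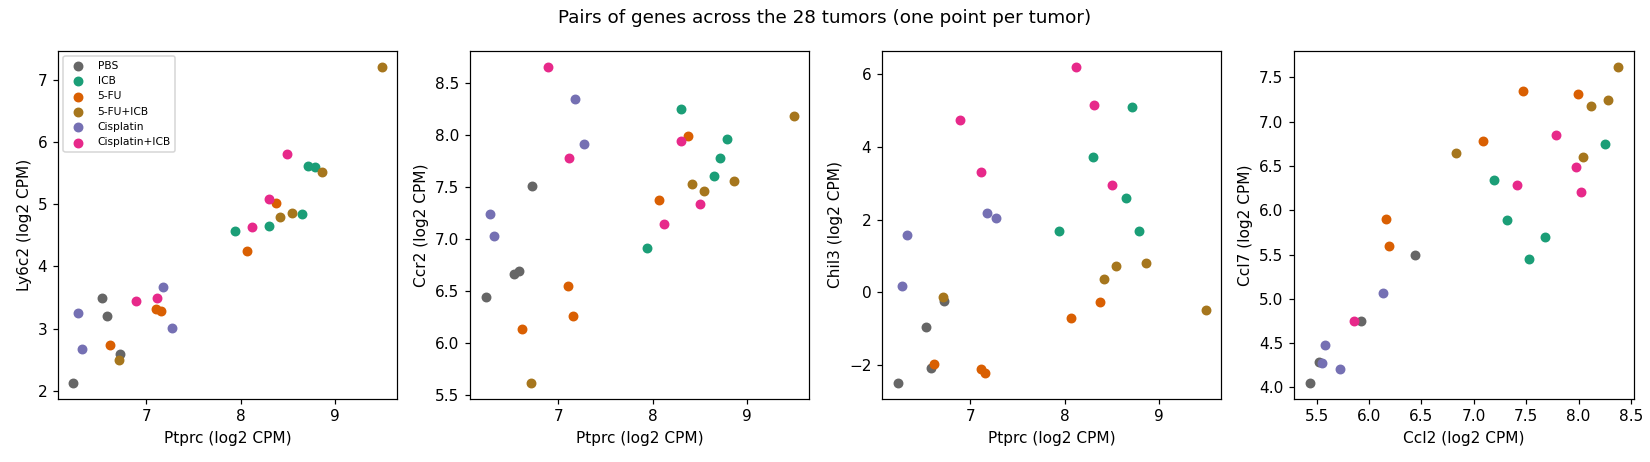
Pairs of genes in log2 CPM, with 1 point per tumor and colors by group: Ly6c2, Ccr2 and Chil3 against Ptprc, and Ccl7 against Ccl2. Ly6c2 lies along a line with Ptprc (r = 0.947), as Ccl7 does with Ccl2 (r = 0.887), while Chil3 scatters (r = 0.386), and in the Ccr2 panel the 4 cisplatin tumors lie above the PBS and 5-FU tumors relative to Ptprc on average (0.87 ± 0.24 against 0.31 ± 0.33 and -0.60 ± 0.20).

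Of 12374 genes with a mean of at least 50 counts, those most like each member by r over the 28 tumors were as follows. Ccl2 was closest to Hcar2 (0.912, within groups 0.791), a niacin receptor of myeloid cells, then Rnf19b (0.911) and Il15ra (0.909). Ccl7 was closest to Pf4 (0.910), the platelet factor 4 chemokine, Cxcl1 (0.887), a neutrophil attractant, and Il4ra (0.867). Ccl8 was closest to C1qa (0.966, within groups 0.954), a complement subunit of macrophages, Cd86 (0.956) and Ly86 (0.955). Ccl12 was closest to Pnp (0.809), Calr (0.788) and Plau (0.774). Ccr2 was closest to Slc25a45 (0.864), Susd3 (0.854) and Dpep2 (0.853). Ly6c2 was closest to Parvg (0.957, within groups 0.925), H2-Oa (0.950) and B3gnt5 (0.947). Chil3 was closest to Gpr141 (0.893, within groups 0.576), the leukotriene B4 receptor Ltb4r1 (0.879) and the granzyme Gzme (0.867), and Plac8 to Glipr2 (0.918), Cr1l (0.904) and Vti1b (0.902).

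Other genes of the same biology were counted from lists chosen with earlier results of these data known, so the counts are descriptions and not tests. They stand beside the shares of all genes called higher, 19% after ICB, 9.98% after 5-FU, 21.9% after 5-FU+ICB, 0% after cisplatin and 4.7% after cisplatin+ICB. Among 11 other tested chemokines, 9 rose after ICB (median 3.25), 6 after 5-FU (1.87), 9 after 5-FU+ICB (3.27), 0 after cisplatin (0.09) and 6 after cisplatin+ICB (2.41). The inflammatory chemokines Ccl5 (4.55), Ccl3 (4.49) and Ccl4 (3.49) and the CCR8 ligand Ccl1 (3.95) changed most after ICB, all more than the 4 chemokine members. Ccl3 rose by 3.04 after 5-FU and by 3.78 after cisplatin+ICB. Of 11 tested inducers of these chemokines, 9 rose after ICB, 5 after 5-FU, 9 after 5-FU+ICB and 5 after cisplatin+ICB. Ifng, the type II interferon, rose by 5.26 after ICB, 2.69 after 5-FU, 4.74 after 5-FU+ICB and 4.34 after cisplatin+ICB. Tnf rose by 3.36 after ICB and 2.43 after 5-FU. Of 8 other receptors, 3 rose after ICB, 3 after 5-FU, 4 after 5-FU+ICB and 1 after cisplatin+ICB.

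Of 12 other genes of Ly6C-high monocytes, 7 rose after ICB (median 1.38), 2 after 5-FU (1.02), 7 after 5-FU+ICB (1.53), 0 after cisplatin (0.25) and 3 after cisplatin+ICB (1.09). After ICB these included the transcription factor Irf8 (2.31), the clotting factor subunit F13a1 (2.25), the integrin Itgam (1.98) and the endotoxin co-receptor Cd14 (1.85). Relative to Ptprc, 5 of the 12 were called lower after ICB and none higher, where 75.1% of all genes were called lower. Of 8 nonclassical monocyte genes, 3, 4, 6, 0 and 1 rose in the same order of treatments, with Nr4a1, their nuclear receptor, at 3.24 after 5-FU. Of 10 macrophage genes, 9, 6, 8, 0 and 2 rose, with Adgre1 (F4/80) at 2.40 after ICB. No gene of these lists was called lower in CPM against PBS.

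Summed markers of other cells that can express the members differed between groups, each in its own way. The sum of the 10 macrophage genes ran from 1929 to 3559 CPM in PBS, 3859 to 12915 in ICB, 3562 to 13867 in 5-FU, 2408 to 13132 in 5-FU+ICB, 1130 to 3341 in cisplatin and 2766 to 5640 in cisplatin+ICB tumors. The sum of 6 T cell markers ran from 25.0 to 37.4 CPM in PBS, 149 to 564 in ICB, 37.6 to 391 in 5-FU, 46.4 to 1178 in 5-FU+ICB, 15.7 to 45.8 in cisplatin and 30.8 to 323 in cisplatin+ICB. All 6 of these rose after ICB and after 5-FU+ICB, 4 after 5-FU and 4 after cisplatin+ICB. The sum of 9 neutrophil markers, the cells that share Chil3, ran from 9.32 to 18.6 CPM in PBS, where Ly6g, Ngp and Camp were at 0 in all tumors, 15.3 to 65.4 in 5-FU, 8.77 to 73.4 in 5-FU+ICB, 17.1 to 34.4 in cisplatin, 60.5 to 168 in ICB and 36.7 to 110 in cisplatin+ICB. Of the 6 tested, 3 rose after ICB, 1 after 5-FU, 2 after 5-FU+ICB, 0 after cisplatin and 5 after cisplatin+ICB. Among other carriers of Ly6C, the sum of 4 endothelial markers ran from 67.1 to 133.3 CPM in PBS, 133.4 to 269 in ICB, 134 to 312 in 5-FU, 163 to 653 in 5-FU+ICB, 74.4 to 107 in cisplatin and 28.0 to 164 in cisplatin+ICB tumors. That of 4 plasmacytoid dendritic cell markers ran from 10.7 to 17.6 CPM in PBS, 7.24 to 44.8 in ICB, 18.4 to 77.8 in 5-FU, 7.50 to 109.8 in 5-FU+ICB, 10.7 to 26.8 in cisplatin and 11.7 to 28.4 in cisplatin+ICB tumors, and its gene Siglech moved with Ly6c2 at r = 0.571 (within groups 0.769). The sum of 5 genes induced by IL-4 in macrophages, which also make Chil3, ran from 143 to 469 CPM in PBS, 568 to 1690 in ICB, 275 to 712 in 5-FU, 386 to 1070.2 in 5-FU+ICB, 112 to 510.1 in cisplatin and 371 to 1803 in cisplatin+ICB tumors. The sum of 5 fibroblast markers, cells that can make the ligands, ran from 3888 to 9165 CPM in PBS and 10385 to 16049 in 5-FU tumors, without overlap, against 3695 to 7403 in ICB, 3699 to 13129 in 5-FU+ICB, 5565 to 9882 in cisplatin and 2125 to 7439 in cisplatin+ICB tumors. The part of each of these cells in the values of the members was not tested.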

How the data were processed

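RNA from 28 tumors was sequenced as 100-base single-end reads. The authors demultiplexed reads with bcl2fastq 2.20.0.422, pseudoaligned them to the mouse transcriptome (GRCm38/mm10) with kallisto 0.46.0 and summarised them to genes with tximport. These estimated counts were deposited by the authors without normalization, as 1 matrix per drug, each with the same PBS and ICB columns. Of these values 23.7% were not whole, and all were rounded before testing. Depth is given by the total counts per tumor. Intervals of fitted values give the uncertainty of a difference between groups, estimated from the variation between mice.

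Counts were filtered with filterByExpr, scaled by TMM and fitted with edgeR 4.0.16 (R 4.3.3, limma 3.58.1) with all groups of a matrix, or all 6 groups joined for 5-FU against cisplatin. Log2 CPM used a prior count of 2. For values relative to Ptprc its count served as library size. Tested on simulated data in which Ptprc itself varied, this fit recovered none of the changed genes. With nothing changed it called 24 of 17589 genes, all false by design. With Ptprc held at the count of each tumor it recovered few of the changed genes and, with nothing changed, called 0. Exact permutation tests were therefore added. DESeq2 1.42.0, other filters, scalings and fits, and leaving out each tumor were alternatives. Shares called by DESeq2 are over all genes with any count, including those to which it gave no adjusted p. Members and lists were chosen with earlier results of these data known. Named were the members, Ptprc, close paralogs, up to 4 called genes per list by size of change, and the 3 genes most like each member. Other genes given with a correlation (Cd8a, Cd3e, S100a8, S100a9, Csf3r, Adgre1, C1qa, Retnlg, Ngp, Siglech and Col1a1) are cell markers chosen after their values were seen.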

Additional observations from a re-analysis of the deposited data

Results flagged for a closer look

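For the 8 genes, 96 sets of values (8 genes, 6 groups, in log2 CPM and relative to Ptprc) were examined for a tumor far from the rest of its group by Dixon's ratio, and 14 were found. Chance alone flags about 1 in 20 groups, and values relative to Ptprc of different genes share that gene. In log2 CPM, Ccl2 was low in replicate 5 of 5-FU+ICB (6.83, the next tumor at 8.04) and in replicate 3 of cisplatin+ICB (5.86, next 7.41). Ccr2 was low in replicate 2 of 5-FU+ICB (5.62, next 7.47).

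Relative to Ptprc, replicate 2 of 5-FU+ICB, which had the lowest Ptprc of its group, was high for Ccl12 (-0.79, next -2.87) and Plac8 (0.265, next -1.26). Replicate 1 of cisplatin+ICB, also the lowest in Ptprc, was high for Ccl8 (2.79, next 0.992) and Plac8 (1.93, next -0.712). Replicate 2 of PBS was high for Ccl8 (1.69, next 0.243) and Ccr2 (0.798, next 0.211), and replicate 3 of 5-FU for Ccl8 (2.42, next 1.35) and Ly6c2 (-3.35, next -3.79). Replicate 1 of ICB was high for Ccr2 (-0.0475, next -0.828). Among cisplatin tumors, replicate 1 was low for Ccl7 (-2.80, next -2.10) and replicate 2 for Ccl8 (-0.11, next 0.486).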

How the results depend on the processing

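The count of called members was within 1.5 times of the reported one under every alternative for ICB against PBS (5, and 5 to 6 leaving out 1 tumor) and 5-FU+ICB against PBS (6, and 4 to 6). Leaving out each tumor in turn gave 1 to 3 for 5-FU against PBS, 0 to 5 for cisplatin+ICB against PBS, 0 to 1 for 5-FU+ICB against ICB and against 5-FU, 0 to 4 for cisplatin+ICB against cisplatin, 0 to 1 for 5-FU against cisplatin and 0 to 1 for 5-FU+ICB against cisplatin+ICB. Relative to Ptprc it gave 1 to 3 for 5-FU+ICB and 0 to 3 for cisplatin+ICB against PBS, 0 to 3 for 5-FU+ICB against 5-FU, 0 to 4 for cisplatin+ICB against ICB and against cisplatin, 0 to 0 for 5-FU against cisplatin and 1 to 3 for 5-FU+ICB against cisplatin+ICB. Plac8 relative to Ptprc reversed without replicate 1 of cisplatin+ICB, from 0.307 at most to -1.25 against PBS and from 0.302 at most to -1.29 against cisplatin. The mean of the per-tumor differences was -0.64 and -0.57 with that tumor kept, so only the edgeR fit turned. The cause was not tested.

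A fit of all 6 groups gave 1 called member for 5-FU against PBS and 1 for 5-FU+ICB against ICB. It also lost the Ly6c2 call in cisplatin+ICB against PBS (1.85, adjusted p = 0.0895). DESeq2 gave 1 for 5-FU+ICB against ICB, 5 for cisplatin+ICB against cisplatin, 5 for 5-FU against cisplatin and 1 for the interaction of ICB with 5-FU, where it called 0.898%, 2.17%, 1.82% and 4.2% of all genes with any count. A fit of only the groups compared gave 0 for cisplatin+ICB against PBS, 3 for 5-FU against cisplatin and 0 for 5-FU+ICB against cisplatin+ICB. The last was also 0 with at least 10 counts in every tumor, since Chil3 was then not tested. With 5 pan-leukocyte genes in place of Ptprc, 0 members were called for 5-FU against cisplatin.

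Replicate numbers in the labels only name tumors: same-numbered tumors correlated in their deviations between -0.657 and 0.678. With the replicate number as a block, the count of called members was 2 for cisplatin+ICB against PBS and 0 for 5-FU against cisplatin, also 0 relative to Ptprc. It stayed within 1.5 times elsewhere. For 5-FU against cisplatin the block left 5 DEGs over all genes, against 67 without it. Plac8 in 5-FU+ICB against PBS (0.67, adjusted p = 0.0705) and Ccl8 in 5-FU against PBS (1.82, adjusted p = 0.0837) lost their calls. Ccl12 in ICB against PBS was called (0.54, adjusted p = 0.0456).

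Over all genes the DEG counts moved more. The ranges that follow are over settings that keep all tumors. For 5-FU against PBS there were 4115, and between 825 (all 6 groups in 1 fit) and 4806 (DESeq2) under other settings. For cisplatin+ICB against PBS there were 1087, and 0 (only the groups compared) to 2148 (DESeq2). Leaving out 1 tumor gave 0 without replicate 1 of PBS and 6277 without replicate 1 of cisplatin+ICB. For 5-FU+ICB against ICB there were 41, and 0 to 319, for 5-FU+ICB against 5-FU 2, and 0 to 497, for cisplatin+ICB against cisplatin 0, and 0 to 767, for 5-FU against cisplatin 67, and 5 to 943, and for 5-FU+ICB against cisplatin+ICB 55, and 0 to 1567. For cisplatin+ICB against ICB there were 0, and 0 to 56, and for the interaction with 5-FU 16, and 0 to 1494. Leaving out 1 tumor took 5-FU against PBS to 1436 without replicate 2 of PBS, 5-FU+ICB against ICB to between 1 and 83, and 5-FU against cisplatin to between 1 and 77. Without replicate 2 of 5-FU+ICB there were 1948 against 5-FU and 2146 against cisplatin+ICB, without replicate 1 of cisplatin+ICB 2114 against cisplatin, and without replicate 3 of PBS 1698 for the interaction with 5-FU. Relative to Ptprc, leaving out 1 tumor moved the count over all genes from 465 to between 12 and 2235 for 5-FU against PBS, from 6552 to between 0 (without replicate 3 of PBS) and 12532 for cisplatin+ICB against PBS, and from 25 to between 3 and 9354 for 5-FU+ICB against cisplatin+ICB. Chil3 at 3 to 23 counts in PBS is the member that depth limits most.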
